A study of Rattus norvegicus with 6 samples.

Results

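The genes examined were 9 transcripts that mark the secretory (club) cells and the multiciliated cells of the conducting airway: Scgb1a1, Scgb3a1, Scgb3a2, Cyp2f4 and Muc5b for the former (5 genes), and Foxj1, Tppp3, Ccdc39 and Dnah5 for the latter (4 genes). They were taken by symbol from the 17833 genes of a bulk RNA-seq table of rat pulmonary veins (PVs), in which each of the 9 had a row. The table held 3 libraries of the bilateral pulmonary vein banding (BPVB) group and 3 of the sham group. All were wild-type Sprague-Dawley (SD) pups, operated on at postnatal day 1 and still suckling, whose PVs were collected from the right upper lobe at postnatal day 21. In both groups the chest was opened under cold anesthesia, and the PVs were constricted only in the BPVB group. By the study's methods, 3 rats per group were drawn at random for RNA-seq.

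The conducting airway is lined mainly by club cells and multiciliated cells. Club cells secrete small proteins of the secretoglobin family, among which Scgb1a1 (uteroglobin, or CC10) is the classical marker, and carry cytochromes P450 that metabolize inhaled compounds. Multiciliated cells are specified by the forkhead factor Foxj1 and beat by means of axonemal dynein motors, Dnah5 being a motor of the outer arms, while a ruler of Ccdc39 and Ccdc40 sets the spacing of the inner arms. Neither cell type belongs to the vein wall, and PVs run close to airway and alveolar tissue within the lung.

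Only part of the labelled cell types was borne out by the defining genes. Scgb1a1 and Tppp3 were plainly expressed, whereas Foxj1, Scgb3a1, Scgb3a2, Cyp2f4 and Muc5b were each listed at 0 in 5 of the 6 libraries. The 9 genes are therefore described by name below and not as a measure of airway cells.

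The start regions of a pair of secretoglobins are shown because they stand for the contrast that runs through the data: Scgb1a1 carried nearly all secretoglobin fragments, and Scgb3a1, its relative in airway secretory cells, almost none. Both are RefSeq sequences of the GRCr8 build, 300 bases that span the annotated start, and the capitals mark matches to CTCAAG or its reverse complement CTTGAG, a core of the type bound by Nkx2-1. Scgb1a1 lies at chr1:215409637-215409936 on the minus strand and Scgb3a1 at chr10:34468916-34469215 on the plus strand.
Scgb1a1: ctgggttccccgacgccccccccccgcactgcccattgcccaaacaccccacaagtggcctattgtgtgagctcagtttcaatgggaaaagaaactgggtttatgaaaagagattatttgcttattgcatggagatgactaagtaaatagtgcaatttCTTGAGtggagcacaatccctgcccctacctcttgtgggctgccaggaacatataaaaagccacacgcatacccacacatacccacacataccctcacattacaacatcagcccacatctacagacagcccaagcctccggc
Scgb3a1: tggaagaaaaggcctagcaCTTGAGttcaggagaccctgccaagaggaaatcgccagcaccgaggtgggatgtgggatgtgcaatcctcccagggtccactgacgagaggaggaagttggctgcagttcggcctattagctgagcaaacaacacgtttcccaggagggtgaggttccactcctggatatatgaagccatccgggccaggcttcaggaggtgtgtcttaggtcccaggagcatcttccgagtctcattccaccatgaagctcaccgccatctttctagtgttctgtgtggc
Each of these windows held 1 such match, as did that of Scgb3a2, whereas those of Cyp2f4, Ccdc39 and Dnah5 held 0. A window of this length held at least 1 match for 15.8% of the 33469 promoters in the RefSeq table, so the letters are common. The table gave windows for 6 of the 9 genes (Scgb1a1, Scgb3a1, Scgb3a2, Cyp2f4, Ccdc39 and Dnah5). GTTGCC or GGCAAC, a core bound by RFX factors, was in none of the 6 windows and in 12.2% of all. TAAACA or TGTTTA, a forkhead core, was found once each for Scgb3a2 and Dnah5 and in 13.7% of all windows. A match describes the letters of a window and is not a binding site.

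The libraries were sequenced to between 23439506 and 29725808 counted fragments, the 3 BPVB libraries being the deeper ones. The values were FPKM, which count fragments relative to gene length and library total, and the whole fragments behind them were recovered from the ratios between libraries. Markers of the vein wall and of its sleeve of atrial myocardium were abundant. Myl7, the atrial myosin light chain, had 5408 ± 166 FPKM in the BPVB group and 8131 ± 74 in the sham group (SD, n = 3 each), and Pecam1, of endothelium, had 253 ± 6 and 285 ± 1. Genes were tested on log2(FPKM + 0.5) with limma and Benjamini-Hochberg adjustment over the 15150 genes with a mean of at least 0.1 FPKM. A gene was called at an adjusted p under 0.05, and a differentially expressed gene (DEG) also had an absolute log2 fold change above 1.

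Of the 9 genes, 4 passed the expression filter, 1 of them was higher in the BPVB group and 1 was lower. Among all tested genes, 17.2% were called higher and 14.3% lower, so that these counts are near the background. The gene called higher, Scgb1a1, was the single DEG among the 9, and 2.24% of all tested genes were DEGs with higher expression (1.03% with lower). On the FPKM scale, Tppp3 had the highest level of the 9 in both groups and Scgb1a1 the next, with no overlap between them in any library. Ccdc39 and Dnah5 followed, with ranges that overlapped in the BPVB group, while in the sham group each Ccdc39 value lay above those of Dnah5. The other 5 genes were at or under 4 fragments in every library and could not be ordered.

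**Figure D1:**
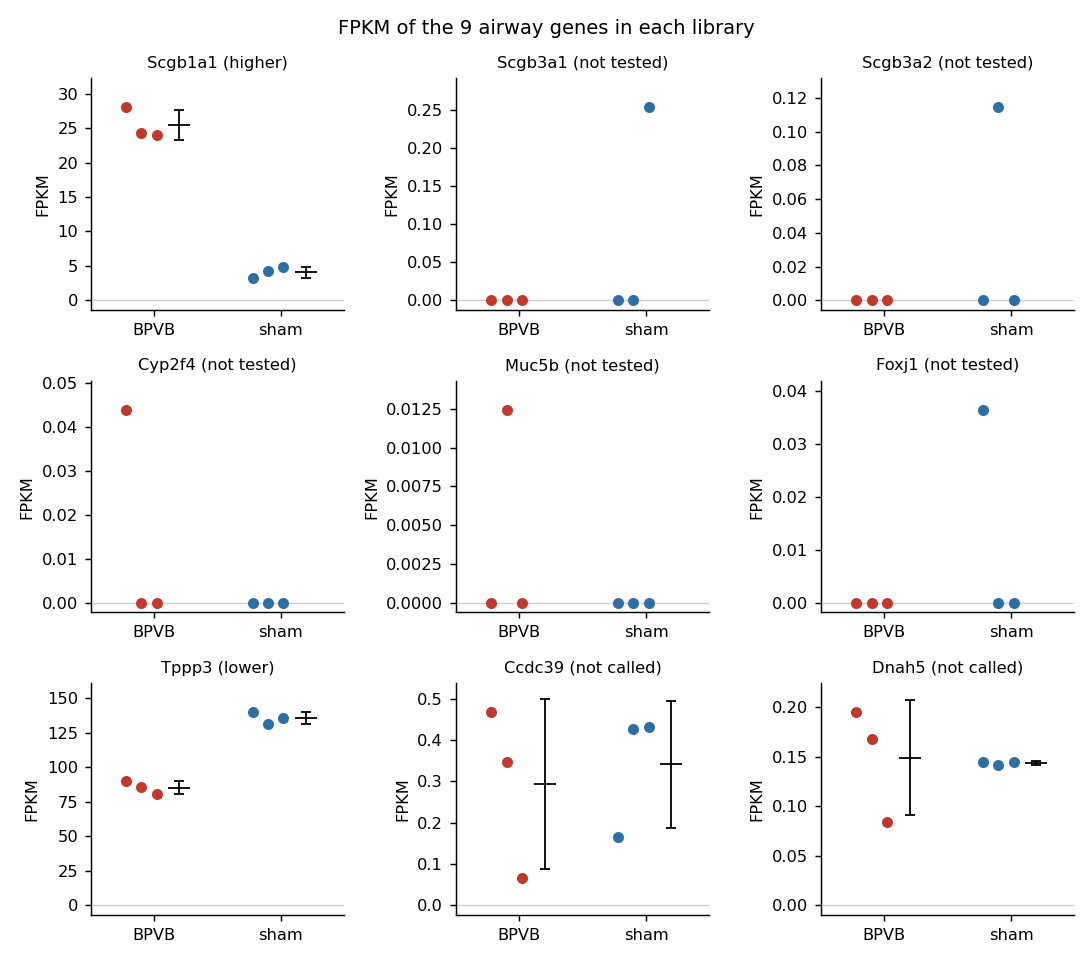
FPKM of the 9 genes (y axis, linear, a separate scale in each panel) in the 3 BPVB (red) and 3 sham (blue) libraries, with the mean ± SD beside the points for the 4 genes that were tested. Scgb1a1 lies at 24.0 to 28.0 FPKM in the BPVB group and at 3.18 to 4.81 in the sham group, Tppp3 is lower in each BPVB library, and the 5 untested genes have 1 point above 0 each.

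Scgb1a1 encodes the most abundant secreted protein of club cells. It had 28.0, 24.3 and 24.0 FPKM in BPVB libraries 1, 2 and 3, from 346, 293 and 331 fragments. In sham libraries 1, 2 and 3 it had 3.18, 4.24 and 4.81 FPKM, from 35, 46 and 53 fragments. Every BPVB library thus lay above every sham library, as was the case for 25.2% of all tested genes. The mean rose from 4.07 ± 0.83 to 25.4 ± 2.2 FPKM (SD, n = 3 each), which is 6.24-fold on the FPKM scale. The log2 fold change was 2.52 (SE 0.13, adjusted p = 1.6e-06, limma), which ranked 27 among the 15150 tested genes. An exact two-sided permutation test of the FPKM gave p = 0.1, the smallest value that 3 libraries against 3 allow.

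The other secretoglobins were at or near 0. Scgb3a1 and Scgb3a2, which airway secretory cells also release, were listed at 0 in all 3 BPVB libraries. Scgb3a1 had 0.254 FPKM in sham library 3 from 2 fragments, and Scgb3a2 had 0.114 FPKM in sham library 2 from 1 fragment. A count of 0 allows up to 3 fragments, which corresponds to at most 0.348 FPKM of Scgb3a1 and 0.308 FPKM of Scgb3a2 in a BPVB library and covers counting error only. The level of Scgb1a1 in those same libraries was thus far above what could have been missed of its relatives. The secretoglobins outside the 9 were low too: Scgb1c1 reached 3 fragments in 1 sham library, and Scgb2a1 reached 10 fragments in BPVB library 2 and was listed at 0 in the sham group.

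Cyp2f4, the rat form of a cytochrome P450 that is characteristic of club cells, had 0.0439 FPKM in BPVB library 1, from 4 fragments, and was listed at 0 elsewhere. Muc5b, the gel-forming mucin of airway secretory cells, had 0.0124 FPKM in BPVB library 2, from 2 fragments, and was listed at 0 elsewhere. The groups overlapped at 0 for both genes. With so few fragments only a lowest possible number can be recovered, since a multiple of it on a longer gene model would give the same FPKM. No difference between the groups was detectable at this depth for Scgb3a1, Scgb3a2, Cyp2f4 or Muc5b, and none of them passed the filter for testing.

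Scgb1a1 was then set beside 38 further club and secretory cell genes, of which 31 had a row and 22 were tested. Of these 22, 12 were higher in the BPVB group, 2 were lower and 8 were not called, beside 17.2% higher and 14.3% lower among all tested genes. Their median log2 fold change was 0.69 beside 0.02 over all tested genes. Among the secreted and mucosal products, 4 of 5 tested genes rose, Scgb1a1 included. Reg3g, a secreted antibacterial lectin, rose from 0.125 ± 0.183 to 2.65 ± 0.32 FPKM, with sham library 3 listed at 0. Pigr, the receptor that carries IgA across epithelium, rose from 0.654 ± 0.174 to 5.22 ± 0.25 FPKM, and the membrane mucin Muc1 rose from 0.292 ± 0.099 to 2.30 ± 0.53 FPKM. These genes are also expressed by alveolar type 2 cells and other epithelia. Agr2, a folding factor of mucin-producing cells, had 0.219 ± 0.194 FPKM in the BPVB group and 0.405 ± 0.075 in the sham group (log2 fold change -0.37, adjusted p = 0.23). BPVB library 2 had 0 Agr2 fragments. The log2 fold change was -0.13 without that library, -0.53 without BPVB library 3 and -1.71 with limma-voom, and Agr2 was called in none of these fits.

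The xenobiotic enzymes split in direction. Of 10 tested genes, 5 were higher, 2 were lower and 3 were not called, beside 17.2% higher and 14.3% lower among all tested genes. The highest change was that of Sec14l3, a lipid-binding protein of airway epithelium, which rose from 0.817 ± 0.199 to 8.41 ± 0.59 FPKM. Cyp2b1 rose from 0.831 ± 0.338 to 5.76 ± 0.44 FPKM, and Aldh3a1, Fmo1 and Cbr3 rose with log2 fold changes of 1.09, 0.90 and 0.66. The call of Cbr3 was lost without BPVB library 1 or 3 or without sham library 2 or 3 (adjusted p 0.061 to 0.10, limma), and also without the expression filter (0.066) and with quantile normalization (0.052). These 5 genes were named after their values were seen. Cyp4b1 fell from 31.8 ± 0.4 to 19.0 ± 1.1 FPKM and Ephx1, the microsomal epoxide hydrolase, from 31.3 ± 0.5 to 18.2 ± 2.1 FPKM. Por, the electron donor of the P450 enzymes, had 23.7 ± 1.0 FPKM in the BPVB group and 25.8 ± 1.2 in the sham group (adjusted p = 0.12).

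Among the factors and channels of secretory cells, 4 of 8 tested genes rose and 4 were not called, beside 17.2% called higher among all tested genes. The uncalled ones were Kcnk1, the highest of the list, Cldn10, Gabrp and Krt4. Their log2 fold changes were 0.11, 0.45, 0.32 and -0.43 (adjusted p 0.094 to 0.44, limma). Krt4, with at most 16 fragments, was lower in every BPVB library than in any sham library. Nkx2-1, the lung epithelial lineage factor, rose from 0.284 ± 0.199 to 1.65 ± 0.42 FPKM. The epithelial sodium channel subunits Scnn1b and Scnn1g had log2 fold changes of 1.39 and 1.37 (adjusted p = 0.00033 and 0.00053, limma), and Foxa2, a forkhead factor of lung epithelium, of 0.73 (adjusted p = 0.022). The size of these changes depended on the pseudocount and the method: from a pseudocount of 1 to limma-voom, the log2 fold change went from 0.89 to 4.91 for Scnn1b, from 0.94 to 2.83 for Scnn1g, from 0.45 to 2.87 for Foxa2 and from 1.04 to 2.80 for Nkx2-1, each of them called in both fits. The call of Foxa2 was lost without BPVB library 1 or 3 or without sham library 2 (adjusted p 0.059 to 0.075, limma). Scnn1b had 0, 1 and 8 fragments in sham libraries 1, 2 and 3. It passed the filter only through its BPVB mean of 0.949 FPKM, the sham mean being 0.051. Nkx2-1, Foxa2 and the sodium channel are shared by alveolar epithelium. Spdef, the factor of goblet cells, had 6 fragments in BPVB library 2 and was listed at 0 elsewhere, and Foxa1 stayed under the filter with at most 22 fragments.

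**Figure D2:**
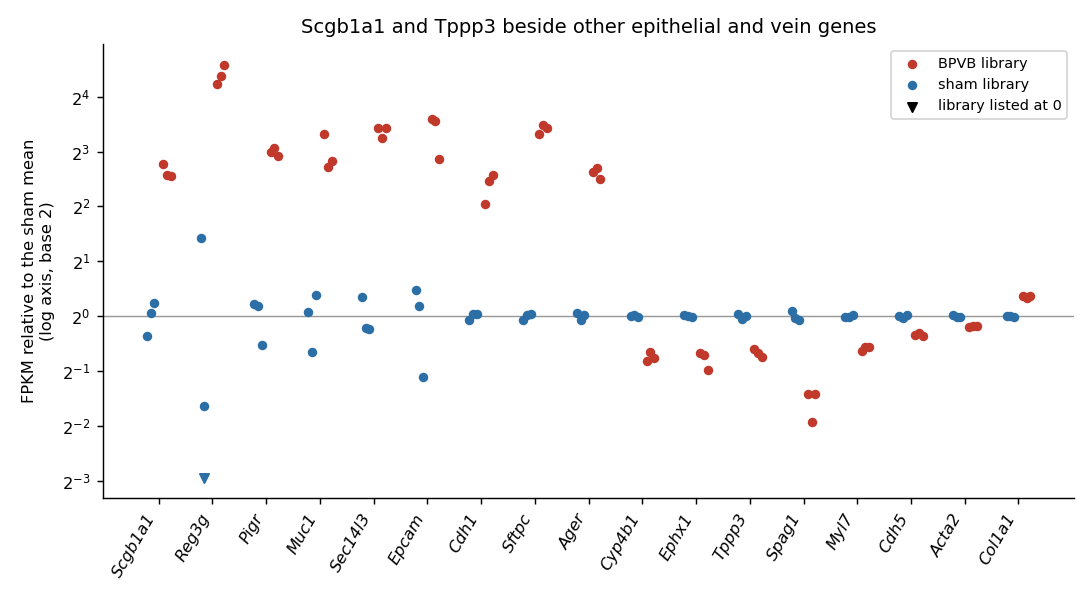
FPKM of each library divided by the mean of the sham group (y axis, log scale with base 2) for Scgb1a1, Tppp3 and genes of secretory cells, alveoli, epithelium and vein wall (x axis), with BPVB libraries in red, sham libraries in blue and a triangle for the sham library in which Reg3g is listed at 0. The BPVB points of Scgb1a1 overlap those of Ager and lie below those of Pigr and Epcam, whereas those of Tppp3 lie below 1 with Cyp4b1, Ephx1, Spag1 and the vein genes Myl7, Cdh5 and Acta2.

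Most markers of alveolar and general epithelium moved with Scgb1a1. The other way went 3 of 4 tested mesothelial genes and 1 gene each of the neuroendocrine and tuft cell lists. Of 10 alveolar type 2 genes, 9 were higher, beside 17.2% of all tested genes. Their summed FPKM was 568 to 613 in the BPVB libraries and 71.6 to 74.8 in the sham libraries. Of 10 alveolar type 1 genes, 8 were higher and 1 was lower, with summed FPKM of 251 to 260 against 157 to 158. The lower one, Hopx, had 59.3 ± 2.6 FPKM in the BPVB group and 70.9 ± 2.3 in the sham group. The general epithelial list had 8 of 11 tested genes higher, with sums of 23.5 to 26.8 against 5.70 to 7.86. Cldn3, among the 8, passed the filter only through its BPVB values. The defining basal cell genes Krt5, Krt14 and Tp63 were at or near 0. The part of these other cells in the rise of Scgb1a1 was not tested, and in bulk RNA a change in the number of cells of a type and a change in RNA per cell cannot be told apart. From its single-cell data of PVs, the paper excluded epithelial cells as likely coming from lung parenchyma. How much adjoining lung each bulk sample held is not given in the sources used here. Its part in these rises was not tested and cannot be told apart from the banding.

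Ratios within a library show how Scgb1a1 moved relative to other epithelial genes, and they are given as a description. Scgb1a1 was 0.398 to 0.481 times the FPKM of Ager, the alveolar type 1 marker, in the BPVB libraries and 0.323 to 0.503 times in the sham libraries, so the groups overlapped. Relative to Sftpc, the surfactant protein C gene of alveolar type 2 cells, it was 0.0593 to 0.0763 in the BPVB group and 0.0909 to 0.128 in the sham group, and every BPVB library was lower. Relative to the epithelial adhesion gene Epcam, the ratio was 5.32, 4.76 and 7.56 in the BPVB group and 5.26, 8.53 and 23.9 in the sham group, where Epcam itself had few fragments. With Cdh1 as the reference, it was 8.68 to 14.5 in the BPVB group and 7.22 to 10.1 in the sham group. The mean log2 difference between the groups was -0.83 (SD 0.83) with Epcam and 0.29 (SD 0.33) with Cdh1. The groups overlapped with both references. The difference with Epcam was -0.22 without sham library 3 and -1.31 without sham library 1, and that with Cdh1 was 0.067 without BPVB library 1 and 0.16 without sham library 1. No direction of Scgb1a1 relative to general epithelium was thus established. Relative to Sec14l3 of airway epithelium, the ratio was 2.75 to 3.20 in the BPVB group and 3.04 to 6.90 in the sham group, with overlap. The ratios to Ager and Sec14l3 were chosen after the values were seen.

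By the distance between profiles of log2(FPKM + 0.5), centred on the mean of the 6 libraries, the genes most like Scgb1a1 among 12156 others were Lamp3 (distance 0.29), Lyc2 (0.36), Spp1 (0.38), Lrrc2 (0.40) and Ankrd23 (0.43). Lamp3 is a marker of the lamellar bodies of alveolar type 2 cells and had 6.54 ± 0.27 FPKM in the BPVB group and 0.746 ± 0.333 in the sham group. Since the 6 libraries formed 2 groups, this likeness mostly describes a similar difference between the groups.

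Tppp3, a tubulin polymerization-promoting protein that stabilizes microtubules, moved the other way. It is used as a marker of multiciliated cells, and it is also expressed by tendon sheath and other mesenchymal cells. It had 90.0, 85.5 and 80.4 FPKM in BPVB libraries 1, 2 and 3, from 2463, 2285 and 2450 fragments. In sham libraries 1, 2 and 3 it had 140, 131 and 135 FPKM, from 3408, 3151 and 3306 fragments. The groups did not overlap, as was the case for 20.5% of all tested genes in this direction. The mean fell from 135 ± 4 to 85.3 ± 4.8 FPKM (SD, n = 3 each), or to 0.630 times the sham level. The log2 fold change was -0.67 (SE 0.05, adjusted p = 9.0e-06, limma), which is short of the DEG threshold, and the exact permutation test again gave its smallest p of 0.1.

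The level of Tppp3 was not matched by other genes of ciliated cells. It was 135 FPKM in the sham group, whereas the next highest of the 37 tested genes of the ciliated cell lists, Cfap298, had 24.8 ± 1.0 FPKM there. Tppp, its family member best known from brain, fell from 16.4 ± 1.0 to 8.42 ± 0.91 FPKM (log2 fold change -0.92), and Tppp2 had at most 11 fragments in any library. The ratio of Tppp3 to Tppp was 8.54 to 11.8 in the BPVB libraries and 7.48 to 8.90 in the sham libraries, which overlapped. These comparisons within the family were chosen after the values were seen.

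Most of the myocardial, endothelial and smooth muscle genes listed also fell, whereas fibroblast genes were called in both directions and their summed FPKM was higher. For comparison, 14.3% of all tested genes were lower and 17.2% were higher. Of 8 genes of the myocardial sleeve, 7 were lower and 1 was higher, and their summed FPKM was 16394 to 16837 in the BPVB libraries and 22267 to 22685 in the sham libraries. Of 6 endothelial genes, 4 were lower (summed FPKM 951 to 966 against 1059 to 1064), and of 6 smooth muscle genes 4 were lower (4616 to 4677 against 4998 to 5048). Relative to Cdh5, the endothelial cadherin, Tppp3 was 0.559 to 0.619 in the BPVB group and 0.721 to 0.749 in the sham group, and relative to Acta2 it was 0.0543 to 0.0614 and 0.0784 to 0.0821. Of 6 fibroblast genes, 3 were higher and 2 were lower, and their summed FPKM was 5189 to 5221 in the BPVB group against 4703 to 4712. Relative to Pdgfra, a receptor of fibroblasts, Tppp3 was 3.96 ± 0.29 in the BPVB group and 8.02 ± 0.33 in the sham group (SD, n = 3 each), without overlap. Tppp3 was thus lower in each BPVB library relative to these 3 genes. Relative to Myl7 of the myocardial sleeve, however, it was 0.0146 to 0.0173 in the BPVB group and 0.0162 to 0.0173 in the sham group, and the groups overlapped. These reference genes were chosen after the values were seen. The part of these cells in the fall of Tppp3 was not tested.

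The ratio of Tppp3 to Scgb1a1, planned as a comparison of ciliated with club cell genes, stood at 3.22, 3.52 and 3.34 in BPVB libraries 1, 2 and 3, against 44.0, 30.9 and 28.2 in the sham group. Since Tppp3 is also expressed outside ciliated cells, and the cell source of the Scgb1a1 RNA was not tested, the ratio describes the 2 transcripts only. The genes most like Tppp3 in profile were Uap1 (distance 0.06), Nes (0.08), St6galnac3 (0.10), Fam78b (0.10) and Col15a1 (0.10), among which Nes encodes the intermediate filament nestin and Col15a1 a basement membrane collagen. The search for Tppp3 was added after the values were seen. A search had been planned for Foxj1, whose profile was flat because it had 1 fragment. The 5 genes nearest to Foxj1 were Tut7, Atxn10, Septin7, Zfp317 and Aga, each with an absolute log2 fold change under 0.1 on the scale of log2(FPKM + 0.5).

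Foxj1, the master regulator of motile ciliogenesis, had 0.0365 FPKM in sham library 1, from 1 fragment, and was listed at 0 in the other 5 libraries. For a library without a fragment, the limit of 3 corresponds to at most 0.0998 FPKM in a BPVB library and 0.111 FPKM in a sham library. Its relatives Foxj2 and Foxj3, which are widely expressed, had 10.4 to 14.0 FPKM in every library. No difference in Foxj1 was detectable at this depth.

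Ccdc39, which sets the spacing of inner dynein arms and nexin links, had 0.467, 0.347 and 0.0658 FPKM in BPVB libraries 1, 2 and 3 and 0.164, 0.427 and 0.431 FPKM in sham libraries 1, 2 and 3. These values came from 51, 37 and 8 fragments and from 16, 41 and 42 fragments. BPVB library 3 and sham library 1 were the low ones, and the groups overlapped. The log2 fold change was -0.10 (SE 0.23, adjusted p = 0.77, limma; exact permutation p = 0.7), and it was 0.12 without BPVB library 3. Ccdc39 overlaps Ttc14 in the RefSeq annotation of GRCr8. Ttc14 had 6.51 to 7.76 FPKM in the 6 libraries, and since the strand setting of the counting is not given in the sources used here, reads of the 2 genes may not be told apart. Ccdc40, the partner of Ccdc39 in the ruler, had 1 to 17 fragments and was under the filter.

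Dnah5, a heavy chain of the outer dynein arm, had 0.195, 0.168 and 0.0844 FPKM in BPVB libraries 1, 2 and 3, from 83, 70 and 40 fragments. The sham libraries had 0.145, 0.142 and 0.145 FPKM, from 55, 53 and 55 fragments, and lay within the range of the BPVB group. The log2 fold change was 0.01 (SE 0.14, adjusted p = 0.98, limma; exact permutation p = 1.0). Dnah5 overlaps 2 other annotated genes, LOC108349970 and tuba1c-ps4, for which the same limit on strand holds. Its outer arm partner Dnah9 had at most 16 fragments, and the intermediate chains Dnai1 and Dnai2 had at most 6 and 12.

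The wider set of ciliated cell genes was as sparse. Of 93 genes listed, 75 had a row in the table, 37 were tested, and 27 had at most 10 fragments in every library. Of the 37 tested genes, 2 were higher, 3 were lower and 32 were not called, with a median log2 fold change of 0.01. No test compared these counts with those of all tested genes, among which 17.2% were higher and 14.3% lower.

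**Figure D3:**
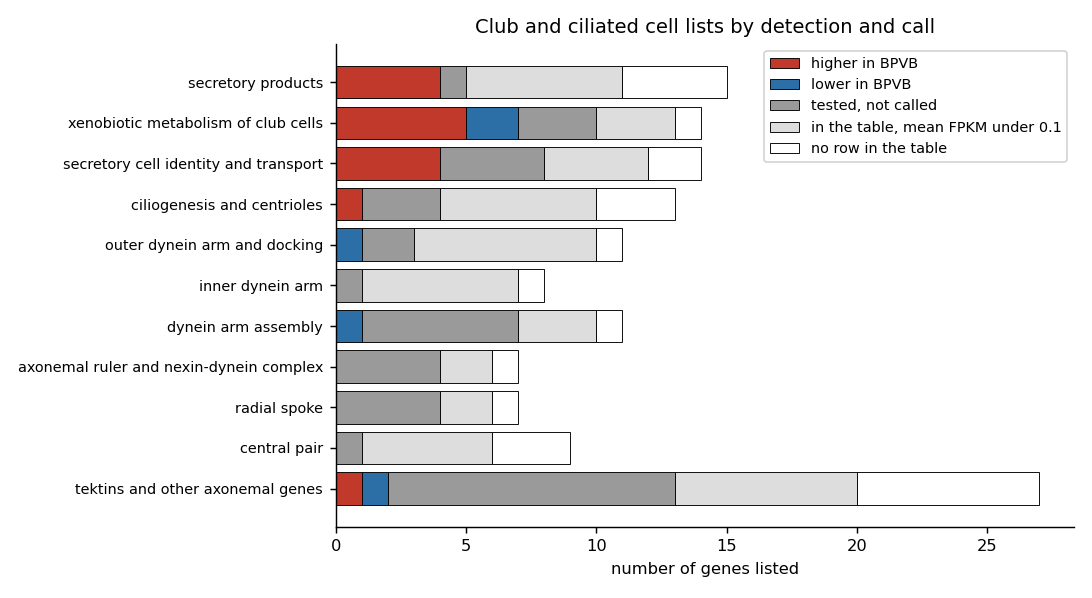
Number of listed genes (x axis) in each of 3 club and secretory cell lists and 8 ciliated cell lists (y axis), divided into higher, lower, tested but not called, under the filter of 0.1 FPKM, and without a row. The ciliated lists consist mostly of genes that were not called or not tested, and the 3 upper lists hold 13 of the 15 genes that were called higher.

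Several of the ciliated cell genes that were tested are known to act outside motile cilia as well. Among regulators, Rfx2 had 1.35 ± 0.27 FPKM in the BPVB group and 1.41 ± 0.26 in the sham group, and Rfx3 had 0.591 ± 0.059 and 0.522 ± 0.037. Both factors also act in primary cilia. Plk4, the kinase of centriole duplication in dividing cells, rose from 0.933 ± 0.241 to 2.19 ± 0.11 FPKM (log2 fold change 0.92, SE 0.15, adjusted p = 0.0016). Gmnc, Foxn4, Deup1, Tp73 and Myb, which belong to the multiciliated program, had at most 10 fragments in any library, and Gmnc and Foxn4 at most 1.

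In the dynein lists, Dnah11 fell from 0.641 ± 0.043 to 0.351 ± 0.072 FPKM (log2 fold change -0.43, SE 0.14, adjusted p = 0.041). This call was lost without any 1 library other than BPVB library 1 (adjusted p 0.074 to 0.11, limma), and with a pseudocount of 0.1 (0.0502). Dnal1 had 5.59 ± 0.41 FPKM in the BPVB group and 6.28 ± 0.14 in the sham group (adjusted p = 0.18). Spag1, a factor in the assembly of dynein arms, had 1.47, 1.04 and 1.48 FPKM in BPVB libraries 1, 2 and 3 and 4.23, 3.85 and 3.77 FPKM in the sham libraries. It fell by 1.29 on the log2 scale (SE 0.13, adjusted p = 0.00010) and was the single DEG of the ciliated lists. The other 6 assembly factors tested were not called, with log2 fold changes of -0.16 to -0.03 for Cfap298, Dnaaf2 and Dnaaf5 and of 0.06 to 0.31 for Zmynd10, Cfap300 and Dnaaf3, although Cfap298 was lower without BPVB library 1 (adjusted p = 0.036, limma) and with median of ratios scaling (0.035).

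The axonemal ruler and nexin-dynein complex, the radial spoke and the central pair had 4, 4 and 1 tested genes, and limma called 0 of them, also at an unadjusted p under 0.05. Their log2 fold changes lay between -0.35 and 0.38, and limma-voom on the recovered fragments also called 0. Ccdc65 had 5.81 ± 0.33 FPKM in the BPVB group and 6.38 ± 0.28 in the sham group, and Rsph1, a radial spoke head protein, had 0.304 ± 0.291 and 0.484 ± 0.149. Without BPVB library 3, which held 21 Rsph1 fragments against 5 and 3 in BPVB libraries 1 and 2, the gene was lower (log2 fold change -0.62, adjusted p = 0.041). Hydin and Spag6, defining genes of the central pair, had at most 4 and 7 fragments. Among tektins and other axonemal genes, 1 of 13 tested genes rose and Tppp3 fell. The gene that rose was Tekt2, from 0.0168 ± 0.0146 to 0.380 ± 0.127 FPKM (adjusted p = 0.0057), with 14, 23 and 15 fragments in BPVB libraries 1, 2 and 3, against 1, 1 and 0 in the sham group. Its sham mean lay under the filter of 0.1 FPKM, so it was tested only because of its BPVB values. Its relatives Tekt1 and Tekt4 did not pass the test or the filter.

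**Figure D4:**
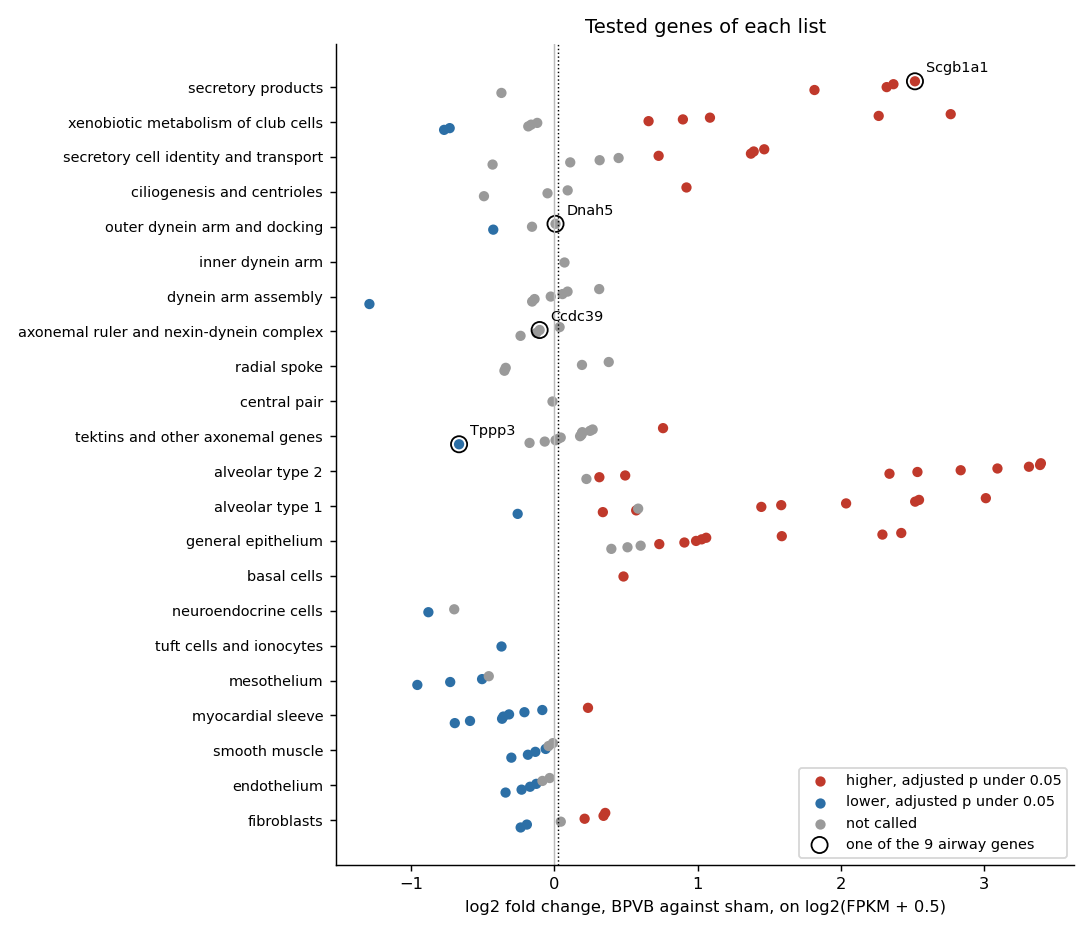
Log2 fold change between the BPVB and sham groups on log2(FPKM + 0.5) (x axis) for each tested gene of the 22 lists (y axis), in red where called higher, blue where called lower and grey where not called, with rings around the 4 tested genes of the 9 and a dotted line at the median of all tested genes, 0.02. Scgb1a1 sits at 2.52 within the range of the alveolar genes, Tppp3 at -0.67, and Ccdc39 and Dnah5 near 0 among other axonemal genes.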

How the data were processed

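Bulk RNA-seq was performed on PV tissue of 3 BPVB and 3 sham rats. The authors mapped the reads with HISAT and deposited gene expression as FPKM, with 1 column per rat. The paper names HTSeq-count and a VAHTS kit, whereas the labels name featureCounts 1.5.0-p3, HISAT2 2.0.5, StringTie 1.3.3b and a NEBNext kit. The genome build, annotation and strand setting are not given in the sources used here. FPKM is scaled by gene length and library total, so a rise of abundant transcripts lowers the rest.

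Whole fragments were recovered from the ratios of a gene's FPKM between libraries for 17832 of 17833 genes (relative tolerance 1e-13), with totals of 23439506 to 29725808 per library. The groups were compared with limma 3.58.1 in R 4.3.3 (eBayes with trend, two-sided) of log2(FPKM + 0.5), keeping genes that averaged 0.1 FPKM or more, with Benjamini-Hochberg adjustment over all of them. The procedure was tested on simulated data. Single genes were also compared by exact permutation of the 6 libraries. No column of per-sample values was left out. Python 3.11.15 with pandas 2.3.3, scipy 1.17.1 and matplotlib 3.10.9 served the other steps.

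The 9 genes, the 22 lists and the tests were chosen with earlier results of these data known. Besides the 9, up to 4 tested genes per list with the highest mean FPKM, and genes called against the direction of their list, were open to being named. Foxa2, Tekt2 and some other genes named above fall outside this rule, and their values were known when they were named. Alternatives were other pseudocounts, filters and scalings, robust eBayes, a block for the replicate number, limma-voom on the recovered fragments, another reference gene for ratios, and leaving out each library. Whether fragments are independent molecules is unknown, so limits from counts cover counting error only.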

Additional observations from a re-analysis of the deposited data

How the results depend on the processing

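Scgb1a1 stayed higher and Tppp3 lower, both with an adjusted p under 0.05 (limma), under all 16 alternatives. The log2 fold change of Scgb1a1 ranged from 2.37 to 2.64 (adjusted p 2.1e-10 to 3.2e-05) and that of Tppp3 from -0.70 to -0.62 (adjusted p 3.7e-17 to 0.00012). Dnah5, near 0, changed sign: it was -0.042 with quantile normalization, -0.066 with limma-voom, and -0.043 to 0.082 when 1 library was left out. Ccdc39 was -0.26 to 0.12 when 1 library was left out, the positive value coming without BPVB replicate 3, and limma-voom gave -0.55 and the pseudocount 0.1 gave -0.27. Neither gene was called under any alternative that tested it, and neither passed the filter of 1 FPKM.

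DEGs numbered 340 higher and 156 lower. With a pseudocount of 1 the lower ones were 98, with 0.1 the DEGs were 611 higher and 290 lower, with TPM 519 were higher, and with limma-voom 715 were higher and 407 lower. Pseudocounts compress the fold changes of low genes: with pseudocounts of 1 and 0.1, Tekt2 was 0.44 and 2.01 and Dnah11 -0.28 and -0.73. With limma-voom, which also differs in unit and weights, they were 3.84 and -0.89. The filter of 1 FPKM left 1 ciliated gene called higher, since Tekt2 was no longer tested, and limma-voom called 5 club and secretory genes lower in place of 2. The log2 ratio of Scgb1a1 to its epithelial reference was -0.83 with Epcam and 0.29 with Cdh1 (the cause was not tested), and with Epcam -1.31 to -0.22 when 1 library was left out, an alternative chosen after seeing the data. Scaling moved the median of all genes by less than 0.1 on the log2 scale, but the balance of calls moved with it: 2362 genes were higher and 2454 lower with median of ratios, 2354 and 2434 with quantile normalization, and 2972 and 1857 with TPM.

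Of the other genes named, 3 uncalled ones near 0 changed sign: Rfx3 was -0.010 with quantile normalization, Dnaaf5 was 0.0011 with TPM, and without 1 library the ranges were -0.13 to 0.081 for Rfx2 and -0.12 to 0.15 for Dnaaf5. Myl7 was not called with quantile normalization (-0.14, adjusted p = 0.31).

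The replicate numbers of the labels were not found to pair the libraries: deviations of same-numbered libraries correlated at 0.014 to 0.025 over all tested genes, although every library correlated best with its own number. With the replicate number as a block, 2466 genes were called higher and 2073 lower against 2605 and 2170 without it, and the calls of the 9 genes were unaltered (Scgb1a1 adjusted p = 2.5e-05, Tppp3 adjusted p = 2.9e-05). Dnah11 and Dclk1 were not called with the block (adjusted p = 0.078 and 0.052).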

Other observations

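Few of the genes listed for rarer airway cells could be tested in these veins. Krt17 of basal cells and Calca and Grp of neuroendocrine cells had no row. The ionocyte genes Foxi1, Ascl3 and Atp6v1b1 had none either, so ionocytes could not be assessed. Among basal cell genes, Krt5, Krt14 and Tp63 had at most 4 fragments in any library and were listed at 0 in the BPVB group, while Ngfr, which nerve-associated cells and fibroblasts also express, was higher in the BPVB group (2.30 ± 0.18 against 1.53 ± 0.37 FPKM, SD, n = 3 each, adjusted p = 0.044, limma). Of the neuroendocrine genes, 2 were tested, and Scg5, a chaperone of secretory granules, was lower (0.508 ± 0.154 against 1.43 ± 0.69 FPKM, adjusted p = 0.035). Dclk1, which tuft cells share with many other cells, was the single tested gene of the tuft cell and ionocyte list and was lower (3.19 ± 0.40 against 4.26 ± 0.17 FPKM, adjusted p = 0.028). None of these 3 calls held in every fit that left out a library: Ngfr lost its call without any 1 library other than sham library 1 (adjusted p up to 0.13), Scg5 without any 1 other than sham library 1 (up to 0.11), and Dclk1 without BPVB library 3 or any 1 sham library (up to 0.084). Without the expression filter Ngfr (0.073) and Scg5 (0.064) were not called, nor was Ngfr with median of ratios (0.054) or quantile normalization (0.095), nor Scg5 with limma-voom (0.069).

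Of 4 tested mesothelial genes, 3 were lower in the BPVB group, namely Msln (0.911 ± 0.128 against 1.90 ± 0.73 FPKM), Upk3b (0.115 ± 0.114 against 0.688 ± 0.169 FPKM) and Upk1b (0.900 ± 0.128 against 1.49 ± 0.20 FPKM), and Lrrn4 had a log2 fold change of -0.46 (adjusted p = 0.061). Msln lost its call without BPVB library 2 or 3 (adjusted p 0.074 and 0.062) and Upk1b without BPVB library 1 or 2 or sham library 1 (0.055 to 0.074) and with limma-voom on the recovered fragments (0.12). Lrrn4 was called without BPVB library 2 (0.042), with quantile normalization (0.027) and with limma-voom (0.035). The summed FPKM of the mesothelial list was 2.28 to 2.38 in the BPVB libraries and 4.18 to 5.68 in the sham libraries. Of 6 fibroblast genes, 3 were higher, among them Col1a1 (1230 ± 14 against 961 ± 7 FPKM), and 2 were lower. Among all tested genes, 17.2% were higher and 14.3% lower.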
